A study of Mus musculus with 16 samples.

Results

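The genes described here are the Smad proteins that carry the signal of a TGF-β or BMP receptor to the nucleus, together with partners that hold them near the receptor or bind DNA beside them. They were taken by name: Smad1, Smad2, Smad3, Smad4, Smad5, Zfyve9, Runx1, Runx2, Runx3 and Zeb2, which are 10 of the 35275 genes in the deposited table. All 10 passed the filter on low counts, as did 13080 genes in all. The RNA came from macrophages grown from tibial marrow of C57BL/6 mice and was read in 16 polyadenylated-RNA libraries, with 4 in each of 4 groups. KO cells carried floxed Smad7 alleles and a tamoxifen-activated Cre (CAGGCre-ER) under the CAGG promoter, which is active in nearly all cell types, and fl/fl cells from littermates carried the floxed alleles without Cre. All mice, controls included, received tamoxifen at 20 mg/kg on 5 days from the age of 1 month, and marrow was taken 2 weeks later. All cultures were grown with CSF-1 and then kept without serum for about 12 hours. The groups were KO with TGF-β1 at 10 ng/ml for 4 hours, KO untreated, fl/fl with the same TGF-β1 and fl/fl untreated. The labels do not say that the 4 libraries of a group came from separate animals, so a p-value here measures the spread between these libraries. The extraction text in the labels speaks of 8 libraries where 16 are listed.

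Activated TGF-β receptors phosphorylate the receptor-regulated Smads Smad2 and Smad3, and BMP receptors phosphorylate Smad1 and Smad5. The phosphorylated proteins join the common partner Smad4, enter the nucleus and bind DNA weakly, so that the genes they reach depend on DNA-binding partners such as the Runx factors and on repressors such as Zeb2. The RNA level of a Smad gene does not show how much of its protein is phosphorylated. Smad7, the gene deleted here, is an inhibitor of this chain at the receptor.

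The DNA before the start of the Runx genes is shown because these were the members that rose, and the DNA before Smad3 because it was the member that fell. Windows of 250 bases before each RefSeq gene start (GRCm38.p6) were at hand for 8 of the 10 genes, 15 windows in all. Both strands were searched for the Runx site TGTGGT, which reads ACCACA on the other strand, the Smad3 and Smad4 palindrome GTCTAGAC, the shorter Smad element CAGAC, the GC-rich Smad element GGCGCC and the Zeb E-box CAGGTG. The palindrome contains no copy of CAGAC. Capitals mark the Runx site and the palindrome. Bases that lie in an annotated exon were left out, except for the short stretch of Runx2.
Runx3, internal start, chr4:135152295-135152495, plus strand: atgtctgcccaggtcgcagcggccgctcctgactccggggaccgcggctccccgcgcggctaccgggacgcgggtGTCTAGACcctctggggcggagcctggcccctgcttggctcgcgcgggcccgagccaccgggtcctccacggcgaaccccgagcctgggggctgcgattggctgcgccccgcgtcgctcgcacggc
Runx3, upstream start, chr4:135120395-135120644, plus strand: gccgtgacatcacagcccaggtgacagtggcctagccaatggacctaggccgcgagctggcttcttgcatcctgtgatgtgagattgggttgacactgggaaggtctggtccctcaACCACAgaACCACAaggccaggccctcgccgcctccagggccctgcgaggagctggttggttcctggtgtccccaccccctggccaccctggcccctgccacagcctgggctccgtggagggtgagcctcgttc
Runx2, 26 bases around its Runx site, chr17:44814692-44814717, minus strand: gaggtcacaaACCACAtgattctgtc
Runx1, internal start, chr16:92697330-92697579, minus strand: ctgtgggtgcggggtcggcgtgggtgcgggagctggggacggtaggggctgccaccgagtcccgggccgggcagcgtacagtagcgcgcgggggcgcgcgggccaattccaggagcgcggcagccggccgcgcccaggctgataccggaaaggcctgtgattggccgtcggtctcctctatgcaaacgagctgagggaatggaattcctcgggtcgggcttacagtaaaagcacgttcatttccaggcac
Smad3, chr9:63757995-63758244, minus strand: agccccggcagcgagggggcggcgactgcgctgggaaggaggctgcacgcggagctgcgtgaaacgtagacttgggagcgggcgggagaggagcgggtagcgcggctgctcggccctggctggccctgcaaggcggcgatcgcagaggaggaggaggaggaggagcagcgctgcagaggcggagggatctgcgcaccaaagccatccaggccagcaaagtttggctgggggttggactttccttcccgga

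The upstream Runx3 window held 2 Runx sites, which began 134 and 126 bases before the start, with a CAGAC at 147 and an E-box at 233 bases. The internal Runx3 window held the palindrome at 175 bases and a CAGAC at 248 bases before the start. The Runx2 site began 80 bases before the start. The Runx1 and Smad3 windows shown held none of the 5 motifs, and a further Runx1 window held an E-box. Among 32817 windows of this length, 14.0% held a Runx site, 0.168% the palindrome, 42.2% CAGAC, 9.59% GGCGCC and 17.2% the E-box. These matches describe letters in a window, and binding was not measured.

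Library totals ran from 16865591 to 23741079 counts. Macrophage genes were abundant in every library: Csf1r, the CSF-1 receptor, had 3964 to 6733 CPM (counts as a rate per library size, scaled by the trimmed mean of M-values), and Lyz2 had 6531 to 16027 CPM. The T-cell receptor genes Cd3e and Cd3g, the NK-cell receptor Ncr1 and the B-cell factor Pax5 had no count in any of the 16 libraries. Other markers of these cells did have counts, with Cd4 at 4.79 to 10.6 CPM and the B-cell gene Cd79b at 1.08 to 3.45 CPM. The endothelial marker Kdr had 5.64 to 20.2 CPM. Smad7 itself had 19.7, 14.8, 10.8 and 10.3 CPM in KO cells with TGF-β1 and 5.87, 1.28, 1.64 and 2.00 CPM in untreated KO cells. In fl/fl cells it had 37.3, 40.9, 45.6 and 58.3 CPM with TGF-β1 and 3.89, 5.24, 6.03 and 4.80 CPM untreated. The log2 difference of KO against fl/fl was -1.71 ± 0.33 under TGF-β1, with an edgeR adjusted p of 0.122 from all libraries and 0.00089 without KO untreated replicate 1. Which stretch of Smad7 is deleted is not given in the sources used here, so counts outside it do not check the deletion. The library labelled KO untreated replicate 1, with the 5.87, went against its group, so results that rest on it are given with and without it. It also had 54.6 CPM of Smad6, a TGF-β-family target and inhibitor, against 3.05 to 5.96 CPM in the other 3 untreated KO libraries.

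TGF-β1 raised all 3 Runx genes and lowered Smad3 in fl/fl macrophages, while the other Smads stayed within the threshold. These 4 of the 10 genes passed an adjusted p of 0.05 in edgeR's quasi-likelihood test, 3 higher and 1 lower, where 15.5% of the 13080 genes passed, 7.87% higher and 7.61% lower. Without the library labelled KO untreated replicate 1, from which the shared estimate of spread also draws, the same 4 passed and 18.1% of all genes did. In KO macrophages with all libraries only Smad3 passed, where 5.17% of all genes passed. A fit with each replicate number within a genotype as a block was added after the data were seen. In it Smad3, Runx1 and Runx2 passed in KO cells, where 7.6% of all genes did. The labels do not say that same-numbered libraries were paired, and with all libraries KO replicates 1 and 2 matched each other best. Without the library labelled KO untreated replicate 1, Runx1, Runx2, Runx3 and Smad3 passed in KO cells in the same directions, where 15.2% of all genes passed. The groups of the same 4 genes did not overlap in fl/fl cells, as was so for 23.9% of all genes. In KO cells the groups of none of the 10 were apart with all libraries (6.04% of all genes), and those of 5 were without that library (24.2%). In these bulk samples fewer cells of a type and less RNA per cell cannot be told apart.

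**Figure D1:**
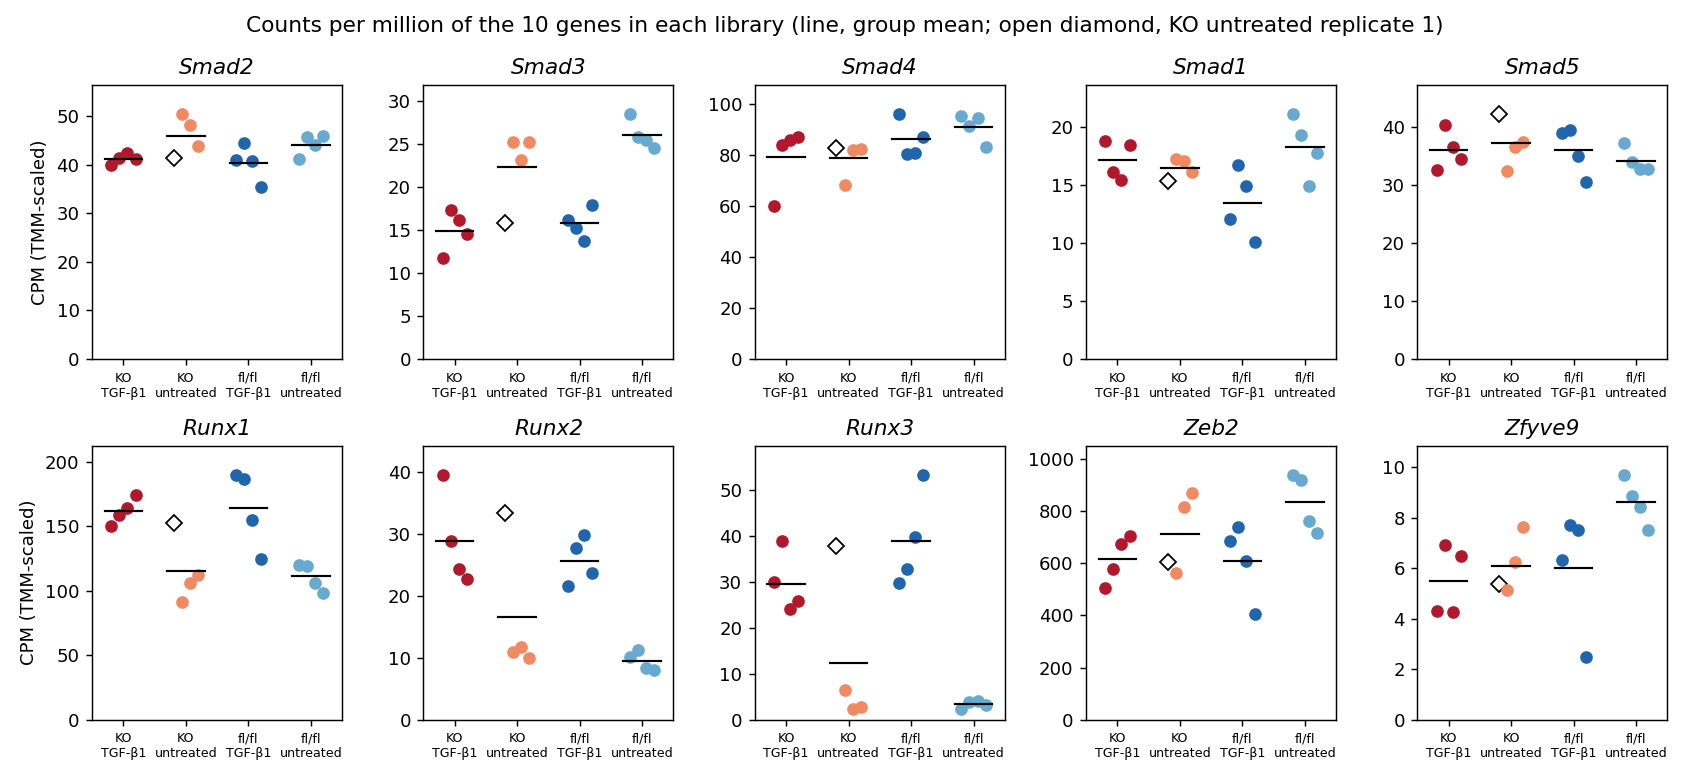
CPM of each gene (vertical axes, linear from 0) in the 16 libraries, with KO TGF-β1, KO untreated, fl/fl TGF-β1 and fl/fl untreated from left to right, a line at each group mean and an open diamond for the library labelled KO untreated replicate 1. That diamond lies among the TGF-β1 libraries for Smad3, Runx1, Runx2 and Runx3, and the fl/fl groups of these 4 genes do not overlap.

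Smad3 (ENSMUSG00000032402, chr9:63646767-63757994, minus strand) is the TGF-β Smad that binds DNA directly. It had 16.1, 15.3, 13.8 and 17.9 CPM in fl/fl cells with TGF-β1, against 28.4, 25.7, 25.4 and 24.4 CPM in untreated fl/fl cells. The groups did not overlap, and Smad3 fell by 0.72 ± 0.15 on the log2 scale (SE, edgeR adjusted p = 0.00384). It had 11.8, 17.3, 16.1 and 14.5 CPM in KO cells with TGF-β1, against 15.8, 25.2, 23.1 and 25.2 CPM in untreated KO cells, of which the 15.8 is the library that went against its group. In KO cells Smad3 fell by 0.58 ± 0.15 with all libraries (edgeR adjusted p = 0.0375) and by 0.69 ± 0.13 without that library (edgeR adjusted p = 0.00104), when the groups no longer overlapped. With all 16 libraries the KO call stood close to the threshold: leaving out 1 library at a time kept it in 4 of 16 fits, with adjusted p between 0.00104 and 0.140.

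Smad2 (ENSMUSG00000024563, chr18:76241580-76305731, plus strand), whose main form does not bind DNA by itself, changed little. It had 40.9, 44.4, 40.8 and 35.4 CPM in fl/fl cells with TGF-β1, against 41.1, 45.6, 43.9 and 45.8 CPM untreated, and the groups overlapped (log2 fold change -0.13 ± 0.09, edgeR adjusted p = 0.404). KO cells had 39.9, 41.4, 42.4 and 41.2 CPM with TGF-β1, against 41.3, 50.3, 48.0 and 43.9 CPM untreated. Without the library labelled KO untreated replicate 1 the KO groups of Smad2 did not overlap, but the difference of -0.17 ± 0.10 had an edgeR adjusted p of 0.292. Genes are compared with each other here in FPKM, the deposited length-corrected unit. Of the summed FPKM of Smad2 and Smad3, Smad3 made up 18.1 ± 2.87% in fl/fl cells with TGF-β1 and 24.9 ± 2.13% in untreated fl/fl cells (SD, n = 4 each). In KO cells the share was 16.8 ± 2.01% with TGF-β1 (SD, n = 4) and 22.5 ± 1.65% in the 3 untreated libraries left without replicate 1, or 21.3 ± 2.78% with it. These shares depend on the gene length used: the deposited length of Smad2 is 2857 bp, against 8781 merged exon bases in GENCODE M21. On the merged lengths, an alternative added after the data were seen, Smad3 made up 38.3 ± 4.47% in fl/fl cells with TGF-β1 and 48.3 ± 2.79% untreated (SD, n = 4 each).

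Smad4 (ENSMUSG00000024515, chr18:73639009-73703780, minus strand), the partner common to both branches, changed little. It had 95.8, 80.3, 80.7 and 87.1 CPM in fl/fl cells with TGF-β1, against 95.2, 91.3, 94.5 and 83.0 CPM in untreated fl/fl cells. It had 59.8, 83.6, 85.7 and 87.1 CPM in KO cells with TGF-β1, against 82.7, 68.0, 81.7 and 82.1 CPM in untreated KO cells. Groups overlapped in both genotypes, with log2 fold changes of -0.08 ± 0.12 in fl/fl cells (edgeR adjusted p = 0.702) and 0.01 ± 0.12 in KO cells (edgeR adjusted p = 0.992). The 95% interval of the fl/fl change ran from -0.31 to 0.15.

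Smad1 (ENSMUSG00000031681, chr8:79338395-79399518, minus strand), a BMP-type Smad, had 12.1, 16.8, 14.9 and 10.1 CPM in fl/fl cells with TGF-β1, against 21.1, 19.3, 14.9 and 17.8 CPM untreated. The groups overlapped by the third untreated library, and the difference of -0.44 ± 0.15 missed the threshold in edgeR (adjusted p = 0.0588), while DESeq2 put it at an adjusted p of 0.0416 and limma on log2(FPKM + 0.1) at 0.0342. Over the fits that left out 1 library, edgeR's adjusted p ran from 0.0236 to 0.181. In KO cells Smad1 had 18.8, 16.1, 15.4 and 18.4 CPM with TGF-β1, against 15.3, 17.3, 17.1 and 16.2 CPM untreated, which overlapped (0.06 ± 0.15, edgeR adjusted p = 0.921).

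Smad5 (ENSMUSG00000021540, chr13:56703010-56742377, plus strand), the other BMP-type Smad here, had 39.0, 39.5, 35.1 and 30.5 CPM in fl/fl cells with TGF-β1, against 37.2, 34.0, 32.8 and 32.8 CPM untreated. In KO cells it had 32.6, 40.4, 36.6 and 34.6 CPM with TGF-β1, against 42.2, 32.5, 36.6 and 37.5 CPM untreated. Groups overlapped in both genotypes, with differences of 0.07 ± 0.11 in fl/fl cells and -0.05 ± 0.11 in KO cells (edgeR adjusted p = 0.714 and 0.925). Zfyve9 (ENSMUSG00000034557, chr4:108637466-108780798, minus strand) encodes SARA, the endosomal anchor that presents Smad2 and Smad3 to the receptor, and was scarce. It had 6.31, 7.73, 7.50 and 2.50 CPM in fl/fl cells with TGF-β1, against 9.69, 8.85, 8.42 and 7.53 CPM untreated, and the difference of -0.52 ± 0.27 did not pass (edgeR adjusted p = 0.231). KO cells had 4.30, 6.92, 4.26 and 6.49 CPM with TGF-β1, against 5.40, 5.14, 6.24 and 7.62 CPM untreated (-0.15 ± 0.27, edgeR adjusted p = 0.891). The lowest Zfyve9 value came from fl/fl TGF-β1 replicate 4, which also had the fewest genes with a count, 14915, against 15834 to 17195 in the other libraries.

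**Figure D2:**
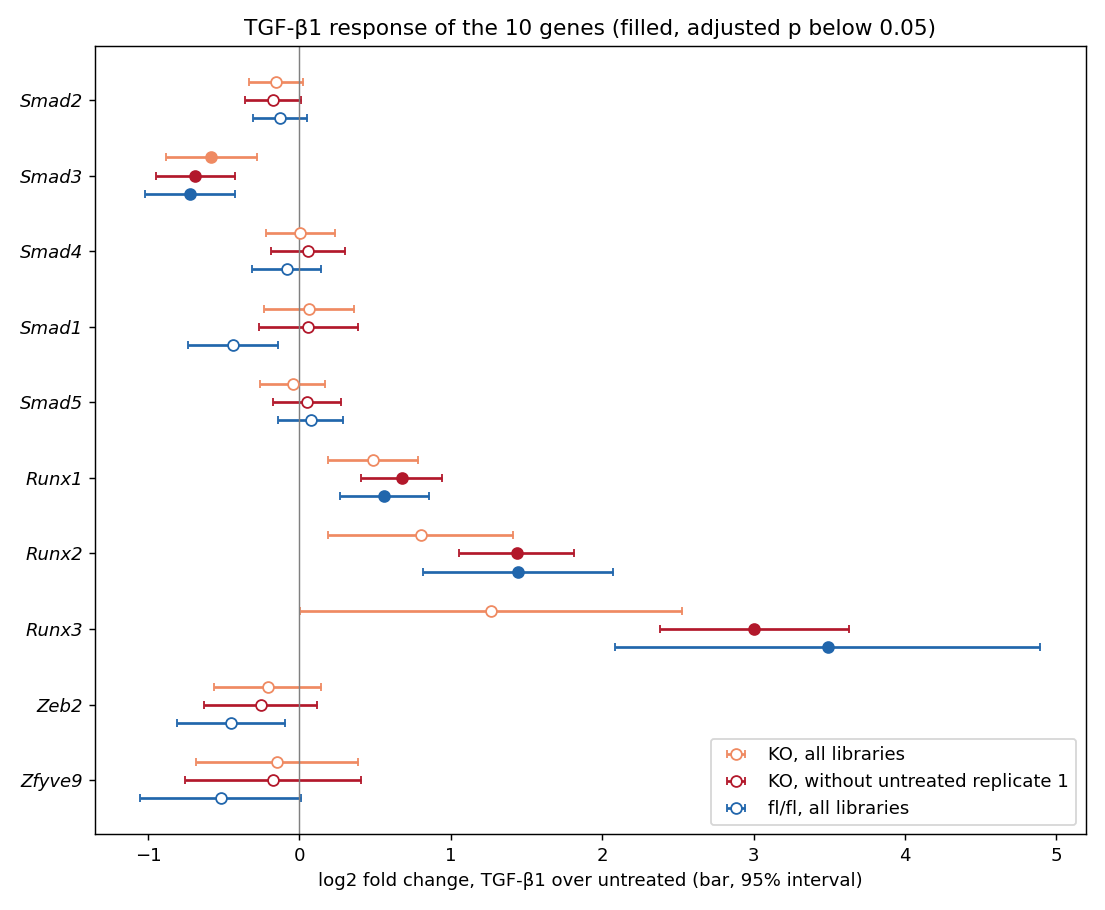
Log2 fold change of TGF-β1 over untreated (horizontal axis) with its 95% interval for each gene, in KO cells with all libraries, KO cells without the library labelled untreated replicate 1, and fl/fl cells. Filled points have an adjusted p below 0.05: Smad3 in all 3 rows, and the Runx genes in fl/fl cells and in KO cells without that library.

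Runx3 (ENSMUSG00000070691, chr4:135120652-135177990, plus strand), a Runx factor best known from cytotoxic T cells and from TGF-β responses of other leukocytes, moved most of the 10 genes. It had 29.9, 32.9, 39.8 and 53.3 CPM in fl/fl cells with TGF-β1, against 2.39, 3.90, 4.17 and 3.32 CPM in untreated fl/fl cells. Every treated library lay far above every untreated one, a rise of 3.49 ± 0.72 on the log2 scale or 11.2-fold (edgeR adjusted p = 0.00443). KO cells had 30.0, 38.9, 24.1 and 25.8 CPM with TGF-β1, against 37.9, 6.42, 2.30 and 2.68 CPM untreated. The 37.9 of the library labelled KO untreated replicate 1 fell inside the treated range. With it the KO difference was 1.27 ± 0.64 (edgeR adjusted p = 0.337), or 2.19 ± 0.58 with the replicate block within genotype (edgeR adjusted p = 0.0566). Also with it, limma on log2(FPKM + 0.1) put the KO difference at an adjusted p of 0.0445, limma on log2(FPKM + 1) at 0.0506 and DESeq2 at 0.318. Without that library Runx3 rose by 3.01 ± 0.32 or 8.03-fold (edgeR adjusted p = 1.58e-06). The T and NK cell markers, mostly Cd4, summed to 4.79 to 6.33 CPM in KO cells with TGF-β1 and 7.02 to 9.81 CPM untreated, and to 5.00 to 7.22 CPM in fl/fl cells with TGF-β1 and 8.86 to 10.9 CPM untreated. In untreated KO replicate 1, the library with 37.9 CPM of Runx3, the sum was 7.02 CPM. A sum that is mostly Cd4 does not measure T or NK cells, and the cell source of Runx3 was not tested.

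Runx2 (ENSMUSG00000039153, chr17:44495987-44814797, minus strand), the factor that drives bone-forming cells, had 21.7, 27.7, 29.8 and 23.7 CPM in fl/fl cells with TGF-β1, against 10.1, 11.3, 8.42 and 8.12 CPM untreated. The groups did not overlap, and Runx2 rose by 1.44 ± 0.32 or 2.72-fold (edgeR adjusted p = 0.00574). KO cells had 39.5, 28.8, 24.3 and 22.7 CPM with TGF-β1, against 33.5, 10.9, 11.7 and 9.98 CPM untreated, the 33.5 again being replicate 1. The KO difference was 0.80 ± 0.31 with that library (edgeR adjusted p = 0.167) and 1.44 ± 0.19 or 2.70-fold without it (edgeR adjusted p = 2.74e-05). With all libraries and the replicate block within genotype it was 0.96 ± 0.18 (edgeR adjusted p = 0.0116). Markers of stromal and bone-forming cells summed to 0.883 to 5.33 CPM in KO cells with TGF-β1 and 1.67 to 7.67 CPM untreated. In fl/fl cells they summed to 0.728 to 3.32 CPM with TGF-β1 and 1.86 to 5.21 CPM untreated. Of these markers Pdgfrb had the highest mean in every group and reached 6.88 CPM, while Sp7, the osteoblast factor, never passed 0.104 CPM. A sum led by Pdgfrb does not measure stromal or bone-forming cells, and the cell source of Runx2 was not tested.

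Runx1 (ENSMUSG00000022952, chr16:92601466-92826149, minus strand), a factor of blood cell formation that macrophages express throughout, had 189.6, 187, 154 and 125 CPM in fl/fl cells with TGF-β1, against 120.2, 119.5, 106 and 98.1 CPM untreated. The lowest treated library stood just above the highest untreated one, and Runx1 rose by 0.56 ± 0.15 or 1.48-fold (edgeR adjusted p = 0.0168). Its call was lost when fl/fl TGF-β1 replicate 1 or 2, or fl/fl untreated replicate 3 or 4, was left out, with adjusted p from 0.0539 to 0.0644. KO cells had 151, 159, 164 and 174 CPM with TGF-β1, against 153, 91.0, 106 and 112 CPM untreated. The KO difference was 0.49 ± 0.15 with all libraries (edgeR adjusted p = 0.0715) and 0.68 ± 0.14 or 1.60-fold without replicate 1 (edgeR adjusted p = 0.00155). The replicate block within genotype gave 0.51 ± 0.13 with all libraries (edgeR adjusted p = 0.0325). With all libraries DESeq2 put the KO difference at an adjusted p of 0.0329 and limma on log2(FPKM + 0.1) at 0.0558.

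The make-up of the Runx family shifted with these changes. The summed FPKM of the 3 genes was 40.4 ± 1.60 in fl/fl cells with TGF-β1 and 21.3 ± 1.92 in untreated fl/fl cells (SD, n = 4 each). Runx3 made up 17.7, 19.0, 24.9 and 35.5% of it in fl/fl cells with TGF-β1, against 2.72, 4.34, 5.23 and 4.54% untreated. Runx1 remained the most abundant, at 66.2 ± 8.71% with TGF-β1 and 88.9 ± 1.01% untreated. These shares also depend on the gene length used. On the merged exon lengths Runx1 made up 55.9 ± 9.55% in fl/fl cells with TGF-β1 and 84.0 ± 1.44% untreated. Runx3 then made up 32.1 ± 9.26% and 6.32 ± 1.57% (SD, n = 4 each). In KO cells Runx3 made up 19.5, 24.1, 16.4 and 16.6% with TGF-β1, against 23.8, 8.76, 2.89 and 3.23% untreated.

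**Figure D3:**
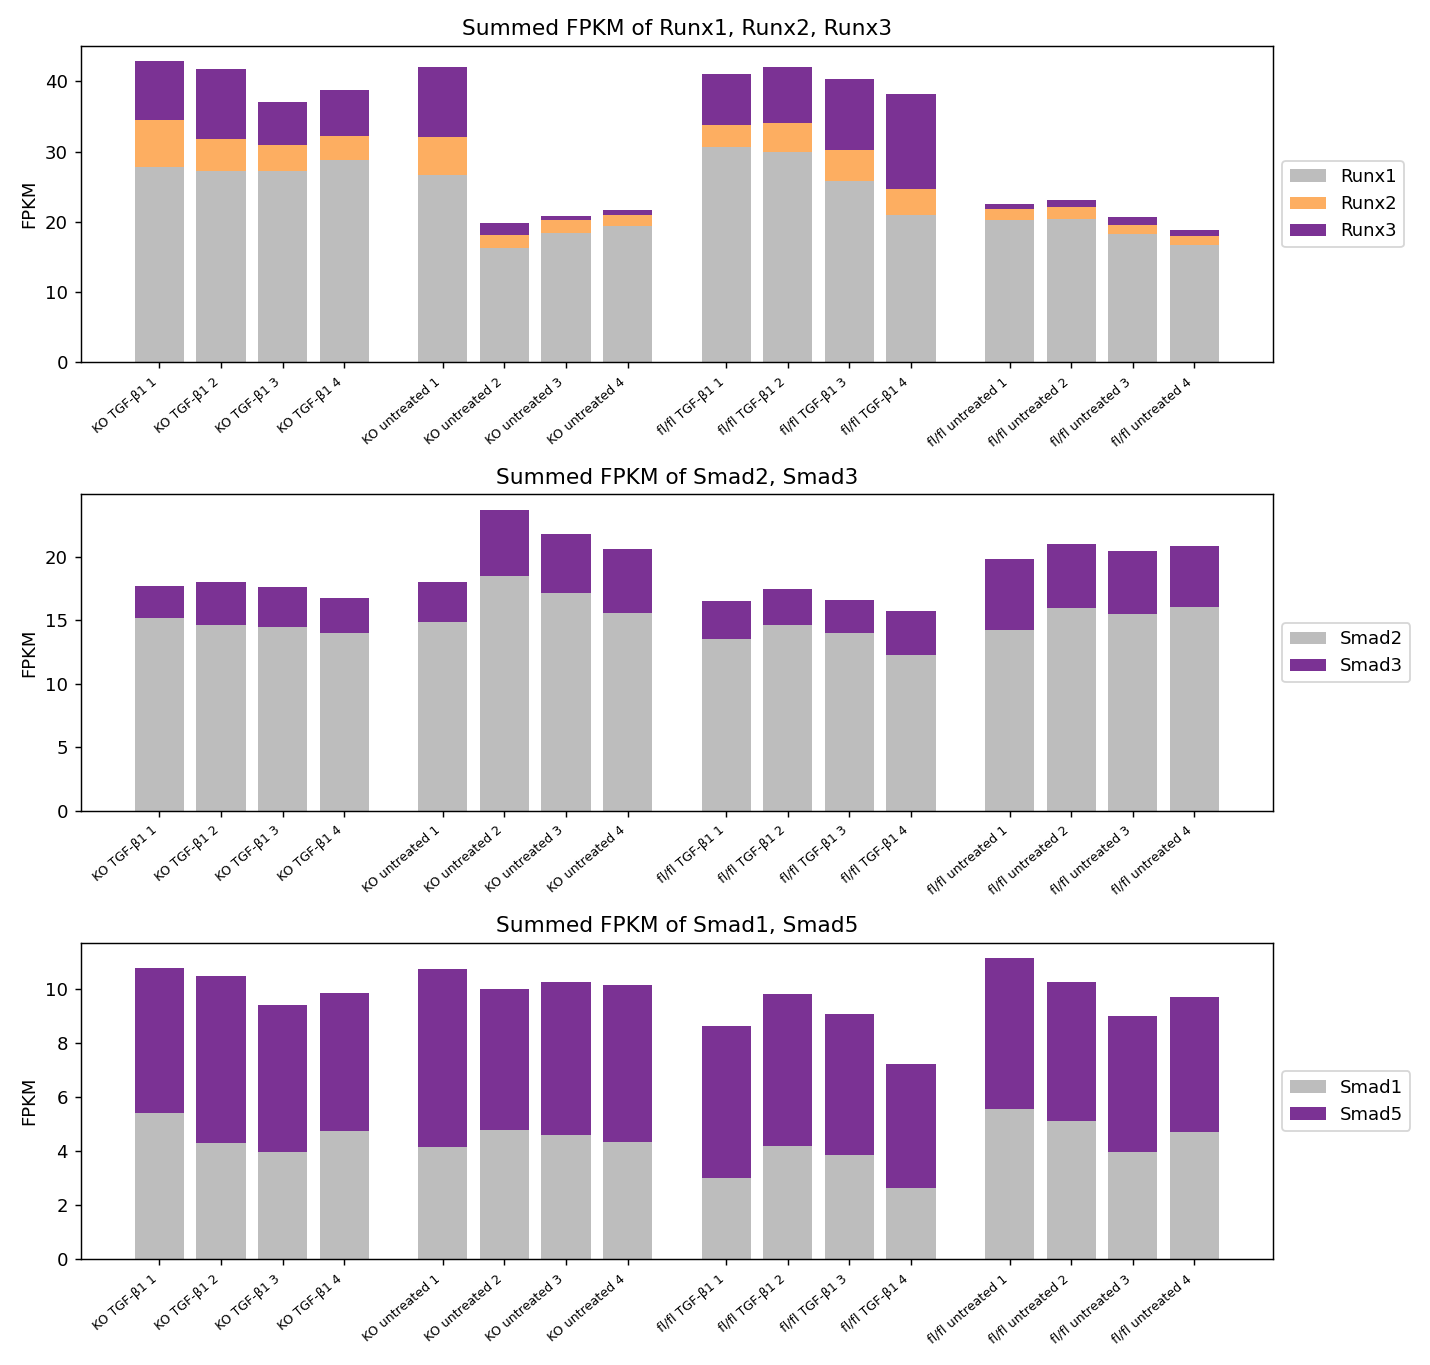
FPKM per library stacked by gene for the Runx family, Smad2 with Smad3, and Smad1 with Smad5 (vertical axes from 0), in the order KO TGF-β1, KO untreated, fl/fl TGF-β1 and fl/fl untreated. The Runx sum is 40.4 in fl/fl cells with TGF-β1 and 21.3 in untreated fl/fl cells, and the bar of KO untreated replicate 1 is as high as those of treated cells.

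Zeb2 (ENSMUSG00000026872, chr2:44983634-45117395, minus strand), a zinc-finger repressor that binds receptor-regulated Smads and helps to keep macrophage identity, was the most abundant of the 10. It had 685, 738, 609.5 and 406 CPM in fl/fl cells with TGF-β1, against 938, 919, 761 and 717 CPM untreated. The groups overlapped by the second treated library, and the difference of -0.45 ± 0.18 did not pass in edgeR (adjusted p = 0.107). KO cells had 506, 577, 675 and 705 CPM with TGF-β1, against 603, 562, 815 and 867 CPM untreated (-0.21 ± 0.18, edgeR adjusted p = 0.662). With the replicate block within genotype Zeb2 fell in fl/fl cells by 0.48 ± 0.11 (edgeR adjusted p = 0.0108). In that blocked fit 5 of the 10 genes passed in fl/fl cells, where 16.8% of all genes passed. Limma on log2(FPKM + 0.1) also called Zeb2 lower in fl/fl cells (adjusted p = 0.0430).

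The level of Zeb2 moved with a library property. For each library the median log2 deviation of long genes (at least 4411 bp) was set against that of short genes (at most 1868 bp), and in each of the 4 groups the library with the lowest such balance also had the least Zeb2. Runx1 and Smad5 shared that property in 4 of 4 groups, as did 4.5% of the 13080 genes. Zeb2, Runx1 and Smad5, at 9113, 5861 and 6584 bp, themselves have the length of the long genes that set the balance. The match is therefore partly built in, and the 4.5% covers genes of all lengths. The balance was -0.47 in KO TGF-β1 replicate 1, -0.49 in KO untreated replicate 2 and -0.38 in fl/fl TGF-β1 replicate 4, and lay between -0.24 and 0.26 in the others. The part of this balance in the Zeb2 values with all libraries was not tested.

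**Figure D4:**
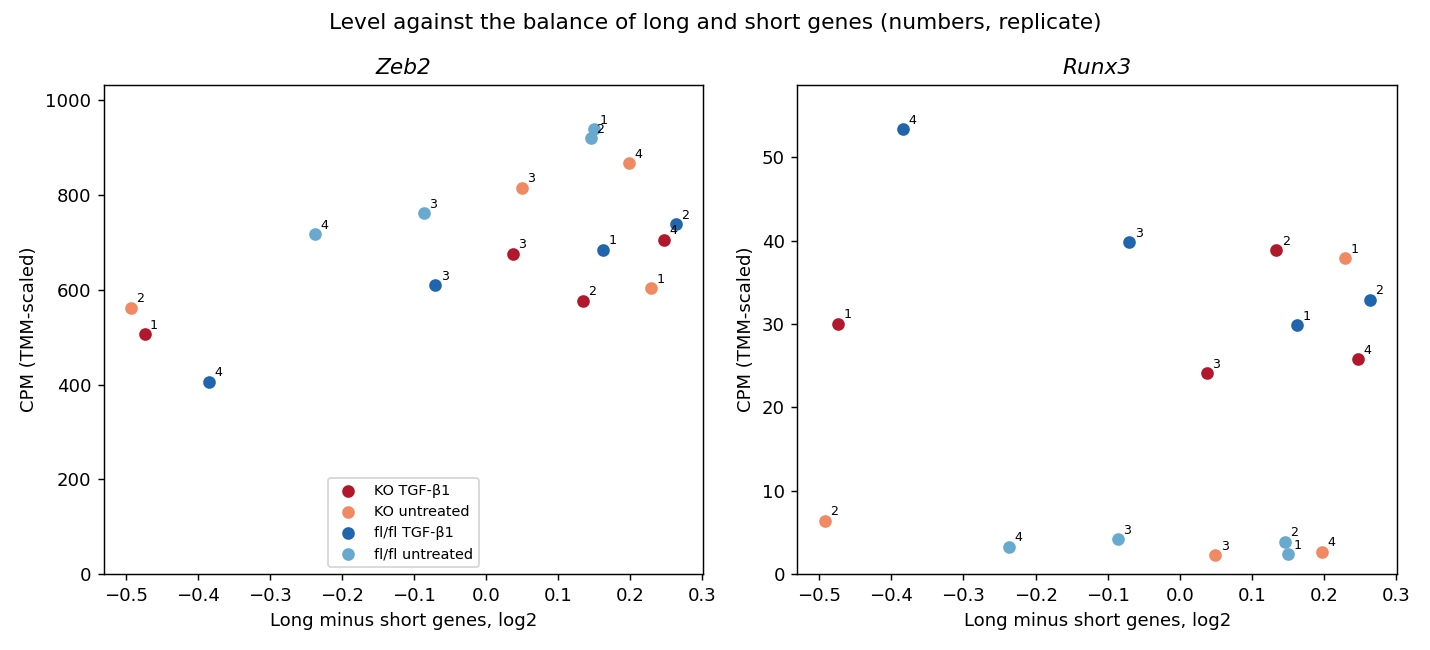
CPM of Zeb2 and of Runx3 (vertical axes from 0) against the balance of long and short genes in each library (log2, horizontal axis), with colours for the 4 groups and numbers for replicates. The libraries at -0.49, -0.47 and -0.38 hold the least Zeb2 of their groups, while Runx3 separates treated from untreated libraries at every balance, apart from KO untreated replicate 1.

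Between KO and fl/fl cells the levels of these genes stayed within the threshold. Only KO cells carried Cre, so effects of Smad7 loss and of Cre cannot be told apart here. Under TGF-β1, KO against fl/fl, none of the 10 passed in edgeR and 0.0382% of all genes did. At an unadjusted p under 0.05 stood 1 of the 10, against 5.61% of all genes. That one was Smad1, at 17.2 ± 1.68 CPM in KO cells and 13.5 ± 2.97 CPM in fl/fl cells (SD, n = 4 each), a difference of 0.35 ± 0.15 with overlapping groups (edgeR adjusted p = 0.877). In untreated cells none of the 10 passed and 0.0459% of all genes did, while 2 of the 10, Runx2 and Runx3, and 10.9% of all genes had an unadjusted p under 0.05. DESeq2 and limma called 0 of the 10 in either comparison. Without the library labelled KO untreated replicate 1 the counts of members passing stayed at 0, where 0.0612% of all genes passed under TGF-β1 and 0.0994% untreated. The untreated Runx3 difference was then 0.10 ± 0.32 and that of Runx2 0.18 ± 0.19.

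Smad4 was the one gene whose untreated groups did not overlap between the genotypes, with 68.0 to 82.7 CPM in KO cells and 83.0 to 95.2 CPM in fl/fl cells. The difference of -0.21 ± 0.12 did not pass (edgeR adjusted p = 0.501), and the groups of 8.04% of all genes did not overlap in that comparison. Under TGF-β1 the Runx3 difference between genotypes was -0.39 ± 0.63, with a 95% interval from -1.62 to 0.83. A fit without KO untreated replicate 1, which is not in this comparison, gave -0.38 ± 0.25. Its interval ran from -0.87 to 0.11. The width of the interval therefore depended on the shared estimate of spread, and the smallest detectable shift was not tested.

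The TGF-β1 response itself was compared between genotypes as an interaction, KO minus fl/fl. In edgeR 0 of the 10 passed, and 0% of all genes passed with all libraries, without replicate 1 and in the blocked fit. With all libraries 2 of the 10 (Smad1 and Runx3) and 2.1% of all genes had an unadjusted p under 0.05. DESeq2 and limma called none of the 10. The Runx3 response differed by -2.22 ± 0.93 with all libraries (edgeR adjusted p = 0.993) and by -0.48 ± 0.41 without the library labelled KO untreated replicate 1 (edgeR adjusted p = 0.982). The Runx2 response differed by -0.64 ± 0.44 with it and by -0.01 ± 0.25 without it. For Smad1 the difference was 0.50 ± 0.21 with it (edgeR adjusted p = 0.993) and 0.50 ± 0.23 without it (edgeR adjusted p = 0.982), so that the value for Smad1 did not rest on that library.

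On the FPKM scale, which corrects for length, Zeb2 led in every group, from 64.2 ± 14.1 in fl/fl cells with TGF-β1 to 91.4 ± 11.8 in untreated fl/fl cells (SD, n = 4 each). In untreated fl/fl cells the order below it was Smad4 at 26.9, Runx1 at 18.9, Smad2 at 15.4, Smad5 at 5.19, Smad3 at 5.10, Smad1 at 4.84, Runx2 at 1.47, Zfyve9 at 1.33 and Runx3 at 0.887 FPKM. Smad5 and Smad3, Smad3 and Smad1, and Runx2 and Zfyve9 overlapped there, and the other neighbours did not. In fl/fl cells with TGF-β1, Runx1 at 26.9 FPKM stood above Smad4 at 24.5 with overlapping ranges. Runx3, last in untreated cells, followed Smad2 with 9.71 ± 2.83 FPKM, and the ranges of these 2 genes overlapped, while Zfyve9 came last with 0.893 ± 0.354 FPKM. KO cells with TGF-β1 also had Runx1 above Smad4, at 27.8 and 23.4 FPKM without overlap, and Runx3 after Smad2 at 7.74 FPKM, apart from Smad2 but overlapping Smad5. On the merged exon lengths Smad4 stood above Runx1 in fl/fl cells with TGF-β1, at 22.3 and 13.1 FPKM. Runx3 stood above Smad2 in the same cells, at 7.54 and 4.42 FPKM without overlap. In KO cells with TGF-β1 Runx3 was also above Smad2, at 6.01 and 4.74 FPKM with overlapping ranges. The order within both pairs therefore depends on the length used, while Runx3 remained last in untreated fl/fl cells.

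**Figure D5:**
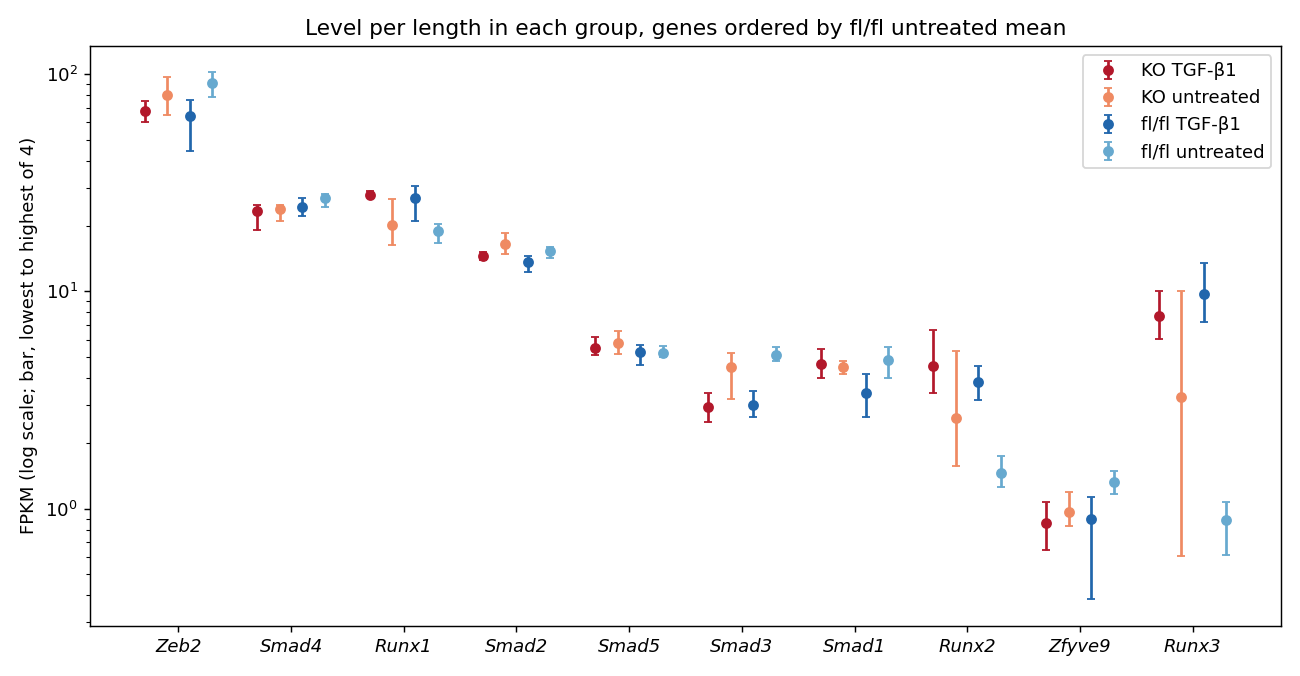
Mean FPKM of each gene on a log axis, with bars from the lowest to the highest of the 4 libraries, in KO TGF-β1, KO untreated, fl/fl TGF-β1 and fl/fl untreated cells. Genes run from the highest to the lowest in untreated fl/fl cells, and Runx3 at the right end, 0.887 there, is at 9.71 in fl/fl cells with TGF-β1.

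Genes with the pattern most like that of Runx3 and Runx2 were ranked over the 16 libraries by the root mean square difference of centred log2 CPM, among 10050 candidates. For Runx3 these were Kcna3, a voltage-gated potassium channel of leukocytes, at 0.36, Rai14, an actin-binding protein, at 0.41 and Plk3, a polo-like kinase, at 0.42, where the median candidate stood at 1.70. For Runx2 they were Ivns1abp at 0.20, Lpcat2, an enzyme of lysophospholipid acylation, at 0.22 and the formin Fhod1 at 0.23, where the median was 0.80. Without the library labelled KO untreated replicate 1 the Runx2 genes were the same 3, and Sipa1l2 at 0.43 took the place of Plk3 for Runx3.

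Other genes that act with the Smads were counted in 5 lists, against the 15.5% of all genes that passed in fl/fl cells with TGF-β1. Of 17 tested co-activators and co-repressors, 4 rose and 1 fell. The risers were Skil, at 646 ± 110 CPM with TGF-β1 and 126 ± 18.0 CPM untreated (SD, n = 4 each; log2 fold change 2.36 ± 0.45, edgeR adjusted p = 0.00305), Tgif1 (1.01 ± 0.17, edgeR adjusted p = 0.00109), Hdac4 (0.97 ± 0.16, edgeR adjusted p = 0.00106) and Ski (1.76 ± 0.37, edgeR adjusted p = 0.00435), the last named after its values were seen. All 4 are known as co-repressors, but the co-repressors on the list were not counted or tested as a group, and Tgif2 (1.19 ± 0.53), Ncor1 (0.02 ± 0.13), Sin3a (0.17 ± 0.14) and Hdac1 (-0.13 ± 0.09) did not pass. Kat2b, a histone acetyltransferase that co-activates, fell by 0.62 ± 0.13 (edgeR adjusted p = 0.00394). The list's median change was 0.02, beside -0.01 over all genes.

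Of 27 other DNA-binding partners of Smads, 6 rose and 4 fell, with a median of 0.08. Mef2a, a factor of the MEF2 family, rose to 750.3 ± 105 CPM with TGF-β1, against 241 ± 21.1 CPM untreated (1.64 ± 0.32, edgeR adjusted p = 0.00265), and its relative Mef2c fell by 0.93 ± 0.16 (edgeR adjusted p = 0.00109). The stress-induced factors Junb and Atf3 rose by 1.07 ± 0.17 and 0.83 ± 0.10 (edgeR adjusted p = 0.000925 and 0.000299). The pocket protein Rbl1 and its partner E2f5, which join Smad3 in repressing growth genes, fell by 0.76 ± 0.15 and 0.74 ± 0.19 (edgeR adjusted p = 0.00249 and 0.0136).

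Of 11 Runx cofactors 1 rose and 1 fell (median 0.06), both co-repressors of the Groucho family: Tle1 by 1.02 ± 0.27 and Tle4, which fell by 0.52 ± 0.14 (edgeR adjusted p = 0.0171 and 0.0158). Cbfb, the subunit that all Runx proteins need for stable DNA binding, named after its values were seen, had a change of 0.19 ± 0.11 that did not pass (edgeR adjusted p = 0.284). Of 7 Zeb cofactors and related repressors (median 0.11) only Mta2, of the NuRD complex, passed, with a rise of 0.31 ± 0.09 (edgeR adjusted p = 0.0182).

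Of 34 anchors, ligases, phosphatases and carriers of Smads, 4 rose and 5 fell, with a median of -0.01. The inhibitory Smads led the risers, Smad6 with 64.5 ± 10.0 CPM with TGF-β1 and 2.47 ± 0.868 CPM untreated, and Smad7 by 3.18 ± 0.36 (edgeR adjusted p = 0.000289), followed by the ubiquitin ligase Smurf1 (0.97 ± 0.16, edgeR adjusted p = 0.00103). Dab2, an endocytic adaptor that binds Smad2 and Smad3, fell by 1.17 ± 0.14 (edgeR adjusted p = 0.000289), Cited2, a CBP-binding co-regulator, by 1.36 ± 0.22 (edgeR adjusted p = 0.00104) and Pml, whose cytoplasmic form assists SARA, by 1.23 ± 0.23 (edgeR adjusted p = 0.00212). In KO cells, where 15.2% of all genes passed without the library labelled untreated replicate 1, the 5 lists in the order given had 5, 5, 1, 1 and 7 genes higher and 0, 5, 2, 0 and 4 lower. With all KO libraries they had 2, 4, 0, 0 and 2 higher and 0, 3, 1, 0 and 3 lower, where 5.17% of all genes passed.

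Genes on the opposite strand overlap several of these loci, and no source used here says whether the counting used strand. Zeb2os, antisense to Zeb2, had 17 to 88 counts per library, Supt3 across the Runx2 start had 105 to 249, and Gm26626 within Runx1 had 1 to 51. Runx2 itself had 169 to 735 counts. If strand was not used, reads of Supt3 and Runx2 in the shared stretch could not be told apart. Gm16224 within Runx3 had at most 2 counts.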

How the data were processed

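RNA of 16 macrophage libraries was measured by sequencing of 150 bp pairs. The deposited table holds raw counts per gene as whole numbers, and a second deposited table holds FPKM, which equalled count over gene length and library total within 0.1% for 100% of positive values. The submitters' processing notes name TopHat2 2.0.9, Cufflinks 2.1.1 and HTSeq 0.6.1, and the builds mm10 and GRCm38.p6, without roles. Strand and multi-mapping options of the counting are not given in the sources used here.

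Genes were filtered with filterByExpr (13080 kept) and scaled by the trimmed mean of M-values, and 1 edgeR 4.0.16 quasi-likelihood model (robust, R 4.3.3) with a mean per group was fitted to the 16 libraries. F-test p-values were adjusted by Benjamini-Hochberg over all tested genes, with a threshold of 0.05. The SE is the log2 fold change over the root of F, and intervals are the change ± 1.96 SE. These intervals use the normal distribution and are narrower than the F-test implies. For Runx3 in KO cells with all libraries the interval ran from 0.006 to 2.53, beside an unadjusted edgeR p of 0.0684. Totals ran from 16865591 to 23741079 counts, and reads carry no molecular identifiers. The model was tested on simulated counts. DESeq2 1.42.0, limma 3.58.1 on log2(FPKM + 0.1) or log2(FPKM + 1), other scalings, filters, blocks and left-out libraries were alternatives.

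The members and lists were chosen with earlier results of these data known. Besides the members and Smad7, genes named are up to 3 higher and 3 lower per list by lowest p in fl/fl cells, and 3 genes of most similar pattern for each member with a called log2 change of at least 1. Library deviations from group means correlated between same-numbered treated and untreated libraries at 0.123 to 0.186 in fl/fl cells, and at 0.112 to 0.227 in KO cells without replicate 1 (0.0724 and 0.0808 for replicates 1 and 2 with it), so a block of replicate number within genotype was added after the data were seen. The best match was not always the same number: fl/fl replicate 2 matched replicate 1 best, and with all libraries KO replicates 1 and 2 matched each other best. Without KO untreated replicate 1 the KO replicates 2, 3 and 4 each matched their own number best. Between genotypes the same-numbered libraries correlated at -0.167 to -0.0219. Sequences are from RefSeq, and a motif position counts bases from the first letter of the match to the start.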

Additional observations from a re-analysis of the deposited data

Results flagged for a closer look

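Of 40 sets of 4 libraries (10 genes in 4 groups), 4 had a library whose gap to the others, as a share of the whole range, exceeded Dixon's 95% critical value, and chance gives about 1 in 20. In untreated KO cells replicate 1 had 37.9 CPM of Runx3, against 2.30 to 6.42 CPM in the other 3 libraries, and 33.5 CPM of Runx2, against 9.98 to 11.7 CPM. Smad4 had a low library in both KO groups: 59.8 CPM in KO TGF-β1 replicate 1, against 83.6 to 87.1 CPM in the rest of that group, and 68.0 CPM in KO untreated replicate 2, against 81.7 to 82.7 CPM. Both of these libraries also had the lowest balance of long to short genes in their groups, -0.47 and -0.49, and its part in the Smad4 values was not tested.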

How the results depend on the processing

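The TGF-β1 result in KO cells depended on the library labelled KO untreated replicate 1. With it, 1 of the 10 genes and 676 of all genes passed. Leaving out 1 library at a time gave 0 to 4 of the 10 and 93 to 1989 of all genes, the highest without that library. DESeq2 called 2 of the 10 and 1093 genes, limma on log2(FPKM + 0.1) called 2 of the 10, no filter on low counts gave 446 genes, and a fit of only the 2 groups compared called 0 of the 10 and 0 genes, with 2 of the 10 and 1916 genes at an unadjusted p under 0.05. Without the library, the other designs (all added after the data were seen) called 4 of the 10: 1839 genes from only the 2 groups compared, 1740 with a replicate block across genotypes, 2272 with a replicate block within genotype, and 2501 when fl/fl TGF-β1 replicate 4 was also left out. With all libraries the replicate block within genotype called 3 of the 10, and the planned replicate block across genotypes called 1 of the 10 and 662 genes. Without the 4 libraries that stand apart, 5 of the 10 and 2789 genes passed in KO cells, and 3261 genes in fl/fl cells; this leaves 2 untreated KO libraries and takes out the lowest Zeb2 values of 3 groups, so no change of Zeb2 is drawn from it. The cause of these differences was not tested.

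In fl/fl cells leaving out 1 library at a time gave 3 to 4 of the 10 and 1379 to 2372 genes. For KO against fl/fl under TGF-β1, 5 genes passed, 4 to 8 with 1 library left out, 24 in DESeq2, 13 without the library labelled KO untreated replicate 1 and fl/fl TGF-β1 replicate 4, and 20 without the 4 libraries. For the untreated comparison 6 passed, 4 to 13 with 1 library left out, 61 in DESeq2, 10 with no filter, 17 without those 2 libraries and 60 without the 4. The interaction gave 0 genes in edgeR and 1 in DESeq2. At an unadjusted edgeR p under 0.05 stood 275 of the 13080 tested genes. None of the 10 was called in these 3 comparisons under any alternative. Over the single genes, 1270 alternative values kept direction and call, 34 gained a call and 17 lost one. The sign changed in 69 values of 18 differences, none of them called with all libraries or in the alternative.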
